A study of Mus musculus with 12 samples.

Results

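Pecam1, Cdh5, Kdr, Flt1, Tek, Tie1, Esam, Robo4, Egfl7 and Plvap are genes by which blood vessel endothelium is commonly recognised, and their RNA was followed across the captured stroma and epithelium of Wnt1-driven mouse mammary tumours. The members are all non-control probes whose transcript accession belongs to one of these 10 genes. They came to 12 probes for 10 genes, of 55681 probes and 20660 named genes on the array. A probe entered the tests if the scanner software put its tumour signal well above background on 3 or more of the 12 arrays. This left 11 member probes of 9 genes among 27292 probes of 13350 genes.

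The 4 groups were stroma from Rarb -/- (KO) tumours, stroma from Rarb +/+ (WT) tumours, epithelium from KO tumours and epithelium from WT tumours, with 3 arrays in each. All mice were of the FVB strain and all tumours came from the MMTV-wnt1 model, in which a mouse mammary tumour virus promoter drives Wnt1 in mammary epithelium. Rarb encodes a retinoic acid receptor. Stroma and epithelium were cut by laser capture from the same tumours, numbered KO 1, 3 and 4 and WT 1, 2 and 3. The ages of the mice were not known here, and the labels do not say whether different tumours were taken from different mice. A p-value here therefore covers the variation among these 12 captures, part of which may be technical. On every array the tumour RNA carried Cy3 and a universal mouse reference RNA carried Cy5, and each value below is the log2 ratio of tumour sample to reference for one probe. A ratio compares a probe between samples; it does not rank genes by abundance.

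Endothelial cells line blood vessels, which in a mammary tumour run through the stroma around the epithelial nests. Kdr and Flt1 are receptors for vascular endothelial growth factors: Kdr carries most of the growth signal, and Flt1 binds the ligand tightly and often acts as a decoy. Tek is the angiopoietin receptor and Tie1 its partner. Pecam1, Cdh5 and Esam are adhesion molecules of endothelial junctions, Robo4 is a vessel-specific relative of the Slit guidance receptors, Egfl7 is a protein secreted by endothelium, and Plvap builds the diaphragms of fenestrae and caveolae in vessels with leaky walls.

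Promoters of 6 of the 10 genes were present in the RefSeq promoter table (build GRCm38.p6), each as 250 bases before and 50 bases after a transcription start. ETS-family factors, several of which act in endothelium, bind a GGAA core, and endothelial promoters are known for such cores. The promoters of 4 members that had a kept probe and a single listed start are shown because these genes, apart from probe 1 of Kdr, had their highest ratio on the same pair of arrays, KO stroma 3 or KO stroma 4. Capitals mark GGAA or its reverse complement TTCC, and each sequence runs 5′ to 3′ on the strand of its gene. They lie at chr5:75978406-75978705 (Kdr, minus strand), chr5:147725962-147726261 (Flt1, minus strand), chr4:118489800-118490099 (Tie1, minus strand) and chr9:37401722-37402021 (Robo4, plus strand).
Kdr: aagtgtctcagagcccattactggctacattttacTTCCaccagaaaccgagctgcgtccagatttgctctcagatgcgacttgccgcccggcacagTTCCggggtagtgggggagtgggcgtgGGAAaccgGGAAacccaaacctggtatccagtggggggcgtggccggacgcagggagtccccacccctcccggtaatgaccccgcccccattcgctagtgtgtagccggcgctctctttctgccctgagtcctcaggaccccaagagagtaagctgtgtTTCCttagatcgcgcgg
Flt1: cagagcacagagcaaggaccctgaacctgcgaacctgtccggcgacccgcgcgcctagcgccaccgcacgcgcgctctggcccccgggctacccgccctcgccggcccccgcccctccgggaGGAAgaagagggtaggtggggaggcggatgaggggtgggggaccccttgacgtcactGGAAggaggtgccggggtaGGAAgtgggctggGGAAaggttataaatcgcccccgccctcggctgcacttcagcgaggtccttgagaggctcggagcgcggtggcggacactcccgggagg
Tie1: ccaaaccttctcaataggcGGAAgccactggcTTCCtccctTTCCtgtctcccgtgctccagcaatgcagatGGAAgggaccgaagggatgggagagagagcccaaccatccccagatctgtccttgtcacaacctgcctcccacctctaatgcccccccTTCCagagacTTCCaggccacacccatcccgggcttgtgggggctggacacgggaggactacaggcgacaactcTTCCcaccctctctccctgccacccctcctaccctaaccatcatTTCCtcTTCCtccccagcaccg
Robo4: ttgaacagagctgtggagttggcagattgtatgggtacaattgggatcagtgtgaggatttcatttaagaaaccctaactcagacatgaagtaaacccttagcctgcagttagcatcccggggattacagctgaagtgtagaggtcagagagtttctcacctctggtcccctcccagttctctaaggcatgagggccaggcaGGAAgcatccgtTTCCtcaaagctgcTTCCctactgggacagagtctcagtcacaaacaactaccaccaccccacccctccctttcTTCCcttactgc

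Counting both strands, the Tie1 promoter held 9 such cores, and 1.59% of the 32851 promoters in the table held at least as many. The Kdr promoter held 5 (28.6% of promoters held at least as many), and those of Flt1 and Robo4 held 4 each (46.3%). At least 1 core was present in 96% of all promoters, so its presence alone does not set these genes apart. A match is a description of the letters and not a measured binding site.

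Several facts of the whole series bear on every comparison below. At most 46.3% of probes had a tumour signal well above background on any array. All stromal arrays lay on one slide and all epithelial arrays on another, with KO arrays in the first row and WT arrays in the second, so slide and compartment, and slide row and genotype, cannot be told apart. Wnt1, the transgene of the tumour epithelium, checks the capture: its log2 ratio averaged 3.24 ± 0.49 in KO stroma and 6.77 ± 0.37 in WT stroma, against 7.26 ± 0.27 in KO epithelium and 7.35 ± 0.28 in WT epithelium (SD, n = 3 each). WT stroma thus lay close to epithelium for Wnt1, and KO stroma did not (KO minus WT -3.53, limma adjusted p = 0.000859). A second, dimmer kept probe of Wnt1 averaged 0.11 in KO stroma and 2.33 in WT stroma, against 1.17 in KO epithelium and 2.39 in WT epithelium. On that probe KO epithelium lay below WT epithelium, and its reference signal was well above background on 0 arrays. Across all kept probes, the mean correlation was 0.567 between KO stroma and KO epithelium arrays, and 0.807 between WT stroma and WT epithelium arrays. Rarb itself averaged 1.5 ± 0.81 in KO stroma and 0.36 ± 0.89 in WT stroma, with no called difference (limma adjusted p = 0.402); whether its kept probe lies in the deleted part was not determined here.

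The endothelial genes were highest in KO stroma. Of the 9 genes with a kept probe, 7 had their highest group mean there, which was so for 31.9% of all kept genes. The exceptions were Esam and Kdr, whose group means were highest in WT epithelium; the rank of Esam rests on its value on WT epithelium 3. At the level of probes, 8 of 11 reached their highest array in KO stroma 3 or KO stroma 4, and 8 of 11 reached their lowest in a KO epithelium array. The shares of all kept probes with these extremes were not determined, so these counts are a description only.

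**Figure D1:**
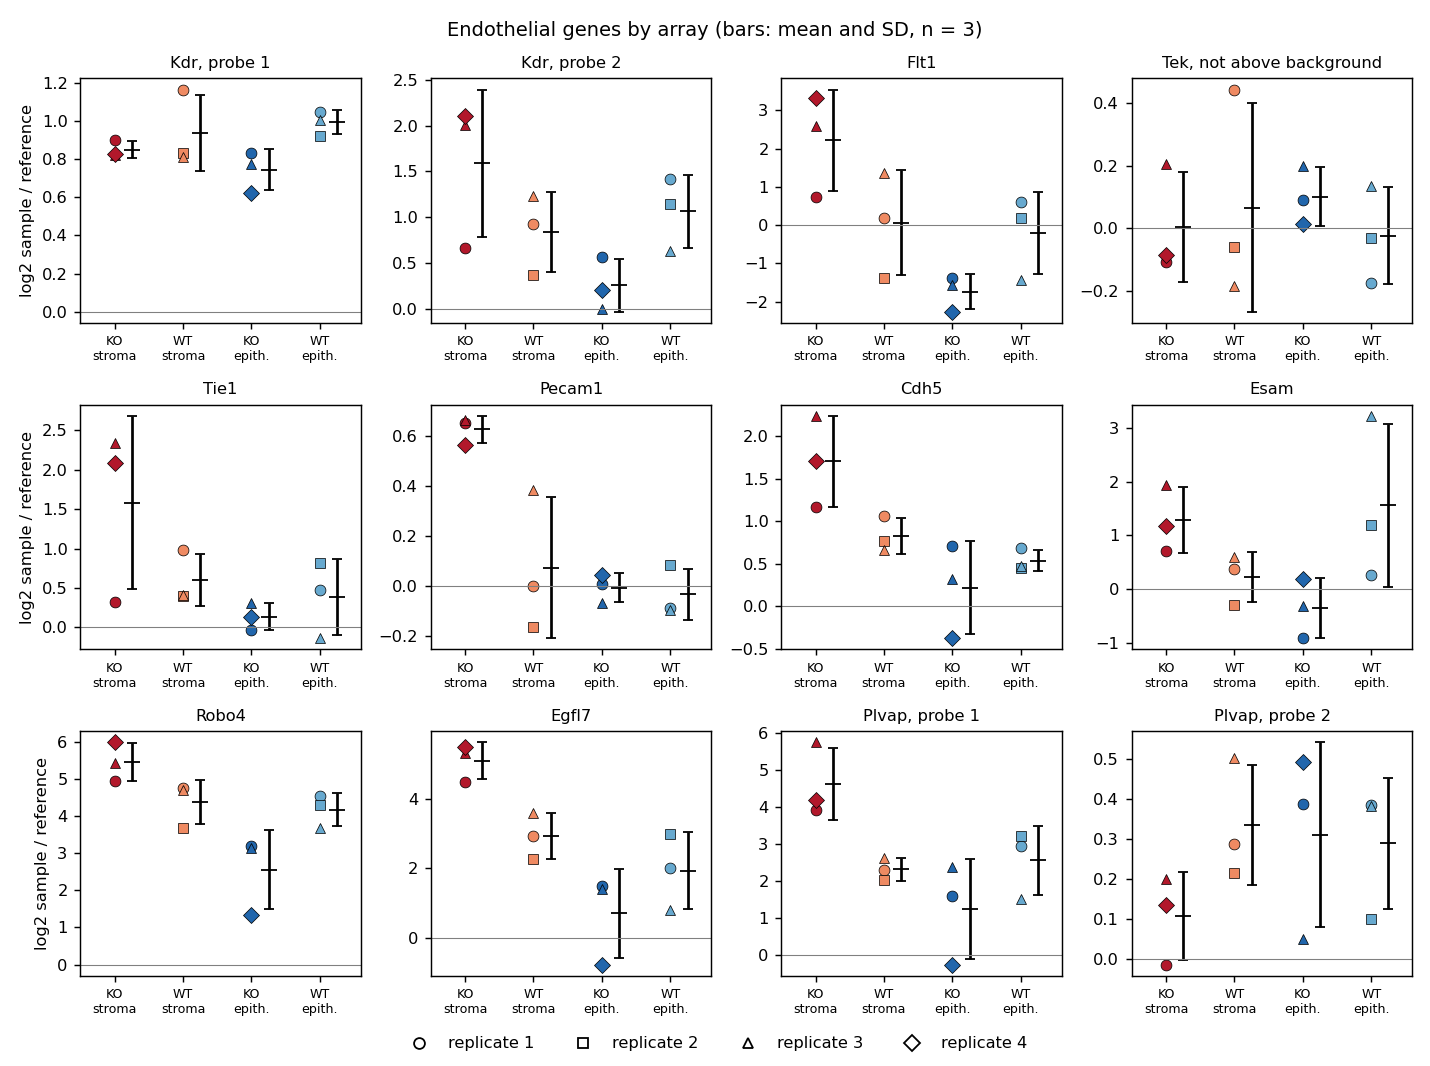
Log2 ratio of tumour sample to reference RNA (vertical axis, a separate scale in each panel) for the 12 member probes in the 4 groups; symbols are arrays by replicate number and bars are the mean and SD of 3 arrays. Flt1, Robo4, Egfl7 and probe 1 of Plvap have their highest arrays in KO stroma, while probe 1 of Kdr and probe 2 of Plvap span under 1 log2 unit over all arrays.

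Flt1 had log2 ratios of 0.75, 2.59 and 3.32 in KO stroma, against 0.18, -1.37 and 1.37 in WT stroma. In epithelium it had -1.38, -1.57 and -2.26 in KO tumours and 0.60, 0.19 and -1.43 in WT tumours. All KO stroma arrays lay above all KO epithelium arrays, and KO and WT overlapped within each compartment. KO stroma 1 and WT stroma 3 were the arrays that crossed in stroma. The tumour signal of Flt1 was well above background on 11 of 12 arrays, the exception being KO epithelium 4.

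Kdr was measured by 2 probes that disagreed. Probe 1 (A_55_P2094469), the brighter one, which stands for the gene in the gene-level fit, had 0.90, 0.82 and 0.83 in KO stroma and 1.16, 0.83 and 0.81 in WT stroma, and 0.83, 0.78 and 0.62 in KO epithelium and 1.05, 0.92 and 1.01 in WT epithelium. Probe 2 (A_51_P316553), the mean of 10 spots, had 0.67, 2.0 and 2.11 in KO stroma and 0.92, 0.37 and 1.24 in WT stroma, and 0.57, 0.0 and 0.21 in KO epithelium and 1.41, 1.15 and 0.63 in WT epithelium. Probe 1 was nearly flat; probe 2 was highest in KO stroma 3 and KO stroma 4, as Flt1 was. The 10 spots of probe 2 agreed within an array, with SDs of 0.133 to 0.192. Its reference signal was well above background on 0 arrays and its tumour signal on 10 of 12, so the denominator of that ratio is close to background.

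The angiopoietin receptors were faint. Tek, on its single probe, was well above background on 0 of 12 arrays in either dye and was not tested; its ratios of -0.19 to 0.44 carry no order. Tie1 was well above background on 2 of 3 KO stroma arrays, 1 of 3 WT stroma arrays, 0 of 3 KO epithelium arrays and 2 of 3 WT epithelium arrays. Its ratios were 0.33, 2.34 and 2.09 in KO stroma and 0.98, 0.40 and 0.41 in WT stroma, with -0.04, 0.31 and 0.14 in KO epithelium and 0.47, 0.81 and -0.14 in WT epithelium. KO stroma 3 and KO stroma 4 stood above every other array, and KO stroma 1 lay among the rest.

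Among the junction genes, Pecam1 had 0.65, 0.66 and 0.56 in KO stroma and 0.0, -0.17 and 0.39 in WT stroma, with 0.01, -0.07 and 0.04 in KO epithelium and -0.09, 0.08 and -0.10 in WT epithelium. Its 3 KO stroma arrays were above all 9 others, with little spread. Cdh5, the vascular cadherin, had 1.17, 2.24 and 1.71 in KO stroma and 1.07, 0.77 and 0.66 in WT stroma, with 0.70, 0.32 and -0.38 in KO epithelium and 0.68, 0.45 and 0.47 in WT epithelium. The KO and WT stroma arrays of Cdh5 did not overlap, with KO stroma 1 and WT stroma 1 close to each other. Its tumour signal was well above background on 1 of 3 KO epithelium arrays and on all arrays of the other groups.

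Esam differed from the others in WT epithelium. It had 0.72, 1.93 and 1.18 in KO stroma and 0.38, -0.29 and 0.60 in WT stroma, with -0.91, -0.32 and 0.20 in KO epithelium and 0.26, 1.19 and 3.22 in WT epithelium. The highest of these, WT epithelium 3, came from a spot whose reference signal was 22885, against 970 to 1957 on the other arrays, and whose tumour signal was 155836, against 506.5 to 5053. The scanner software had not marked that spot as non-uniform. On WT epithelium 3, 416 of the kept probes (1.52%) had a reference signal more than 4-fold from their median over the arrays, and the other arrays had 1 to 16 such probes. Esam was the 1 member with such a spot on that array, and Cdh5 on WT stroma 2 was the 1 other case, with a reference signal of 940 against at most 132 elsewhere; its tumour signal was raised as well, so its ratio of 0.77 stayed near those of WT stroma 1 and 3.

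**Figure D2:**
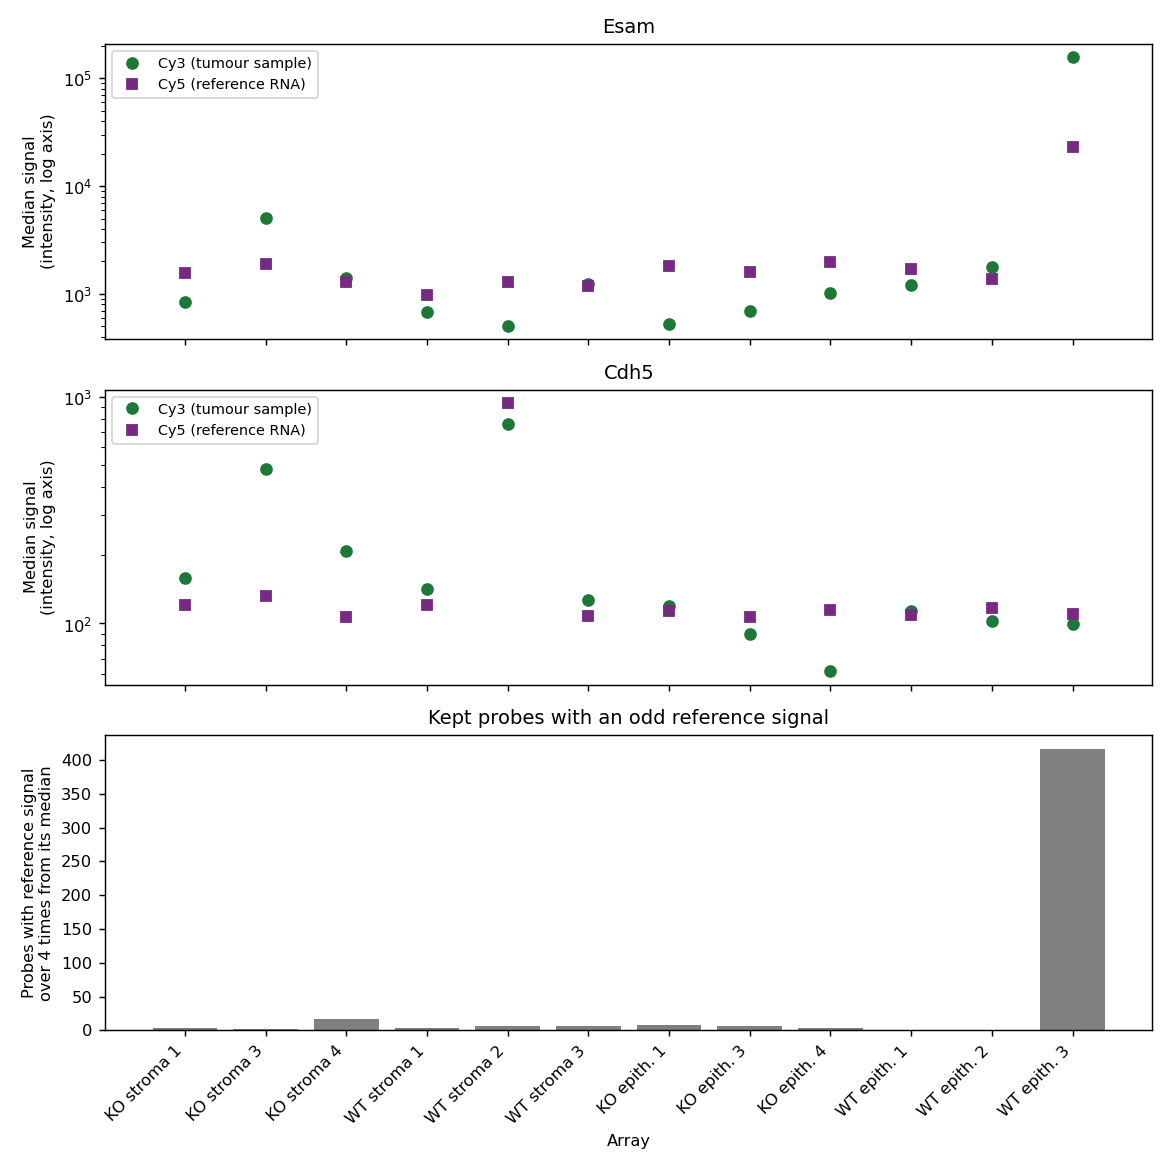
Median signal of the Esam and Cdh5 spots on each array in Cy3 (tumour sample, circles) and Cy5 (reference RNA, squares) on a log axis, and, at the bottom, the number of kept probes whose reference signal was over 4 times from its median. Esam on WT epithelium 3 is at 155836 and 22885, Cdh5 on WT stroma 2 at 757 and 940, and WT epithelium 3 has 416 odd probes.

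Robo4 had 4.94, 5.42 and 5.97 in KO stroma and 4.75, 3.68 and 4.69 in WT stroma, with 3.19, 3.13 and 1.32 in KO epithelium and 4.54, 4.28 and 3.67 in WT epithelium. The order of the groups was therefore KO stroma, WT stroma, WT epithelium, KO epithelium, with WT stroma and WT epithelium overlapping. The reference signal of Robo4 was well above background on 1 of 12 arrays, so its high ratios rest on a denominator near background. Robo4 and Esam are near neighbours in the mouse genome, with 2 protein-coding genes between them.

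Egfl7 had 4.49, 5.32 and 5.48 in KO stroma and 2.93, 2.26 and 3.6 in WT stroma, with 1.49, 1.41 and -0.77 in KO epithelium and 2.03, 3.0 and 0.79 in WT epithelium. Every KO stroma array was above every other array, and KO epithelium 4 was the lowest. Both its tumour signal, up to 55269.5, and its reference signal were well above background on all 12 arrays.

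Plvap had 2 probes that disagreed. Probe 1 (A_51_P414653) had 3.92, 5.74 and 4.19 in KO stroma and 2.28, 2.02 and 2.63 in WT stroma, with 1.60, 2.37 and -0.26 in KO epithelium and 2.95, 3.22 and 1.5 in WT epithelium. Probe 2 (A_55_P2049186) had -0.01, 0.20 and 0.13 in KO stroma and 0.29, 0.22 and 0.50 in WT stroma, with 0.39, 0.05 and 0.49 in KO epithelium and 0.39, 0.10 and 0.38 in WT epithelium. Probe 1 separated KO stroma from every other group, and probe 2 stayed between -0.01 and 0.50. Both probes are annotated to the same transcript, and the files hold no probe sequence that would show what each one binds.

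In stroma, the comparison of KO with WT asks whether the loss of Rarb goes with a change in vessel genes around the tumour cells. No member passed the test: 0 of 9 genes were called at an adjusted p under 0.05 (limma, Benjamini-Hochberg over all kept genes), where 6.37% of all kept genes were called. The members nevertheless lay on one side, with 8 of 9 higher in KO stroma and a median log2 difference of 1.05, against -0.01 over all kept genes. The groups did not overlap for 6 of the 9 (26.2% of all kept genes), and 5 of 9 had an unadjusted p under 0.05 (21.5% of all kept genes).

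The largest differences in stroma were those of Plvap (log2 2.31, SE 0.70, limma adjusted p = 0.0774), Egfl7 (2.17, SE 0.69, adjusted p = 0.0877) and Flt1 (2.16, SE 0.81, adjusted p = 0.145). Pecam1 had the smallest adjusted p, 0.0718, at a difference of 0.55 (SE 0.16). Robo4, Esam, Tie1 and Cdh5 differed by 1.07, 1.05, 0.99 and 0.87, with limma adjusted p between 0.125 and 0.398. Kdr differed by -0.09 (SE 0.15) on probe 1 and by 0.75 (SE 0.39, limma adjusted p = 0.342 over probes) on probe 2, and Plvap probe 2 by -0.23 (SE 0.16). With the epithelial arrays left out, so that 1 slide remained, 0 of 9 were called as well. Leaving out 1 array at a time, Plvap was called without KO epithelium 4 (limma adjusted p = 0.0464), Tie1 without KO stroma 1 (0.0304) and Pecam1 without WT stroma 3 (0.0303), and no member in the 9 other fits.

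In epithelium the members lay on the other side. There, 0 of 9 were called, where 0.00749% of all kept genes (1 gene) were, 8 of 9 were lower in KO epithelium, and the median log2 difference was -1.23, against 0.03 over all kept genes. Robo4 had the smallest unadjusted p: its log2 difference was -1.62 (SE 0.51, limma adjusted p = 0.612), and its groups did not overlap. Esam, Kdr and Robo4 were the 3 genes of 9 without overlap (14.0% of all kept genes), and 2 of 9 had an unadjusted p under 0.05 (8.09%). Esam differed by -1.90 (SE 0.65), which became -1.07 with the odd reference spots set missing. Flt1, Plvap and Egfl7 differed by -1.52, -1.32 and -1.23, and Cdh5 and Kdr by -0.32 and -0.25. Tie1 was not well above background on any KO epithelium array or on WT epithelium 3, so no fold bound is drawn. It is counted among the 8 on an estimate of -0.24. KO epithelium 4 was the lowest array for several of these, and the median was -0.49 without it.

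**Figure D3:**
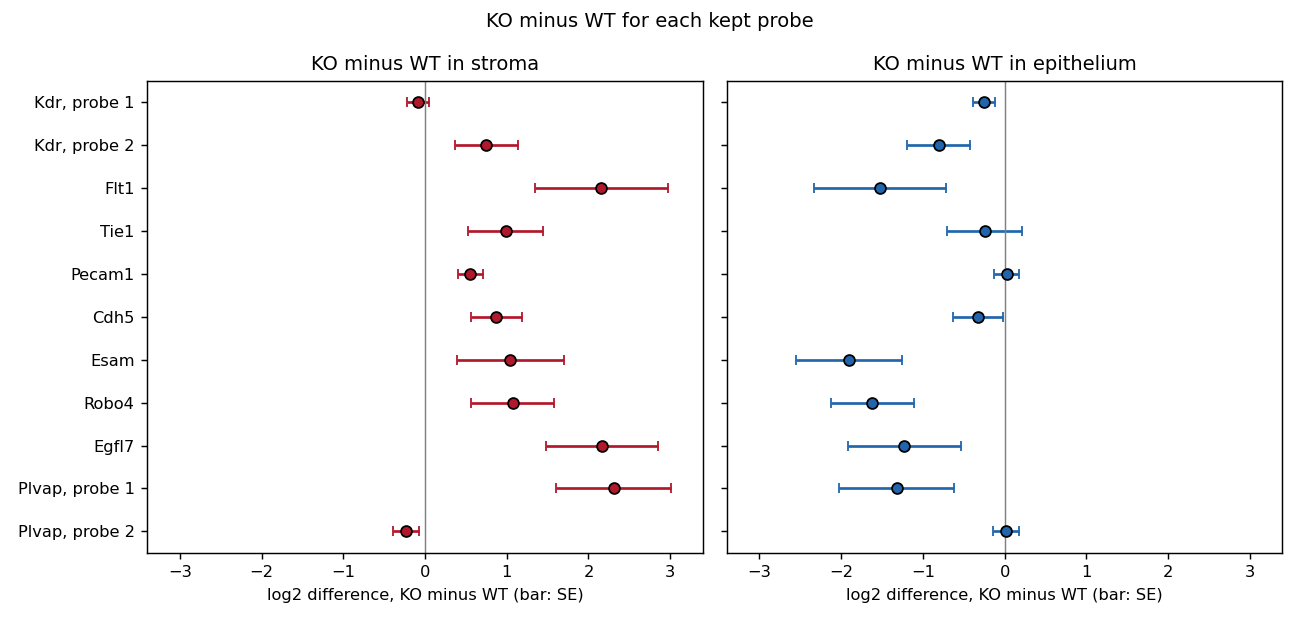
Log2 difference KO minus WT for each of the 11 kept probes (rows) in stroma (left) and epithelium (right); points are limma estimates and bars are 1 SE on each side. In stroma 9 of 11 probes lie right of 0, up to 2.31 for probe 1 of Plvap, and in epithelium the same probe lies at -1.32.

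Stroma was then set against epithelium of the same tumours, to see whether the vessel genes mark the captured stroma. In KO tumours, 6 of 9 members were called and all 6 were higher in stroma, where 20.0% of all kept genes were called and 10.2% were called higher. Egfl7, the secreted endothelial factor, was 4.39 log2 units higher in KO stroma than in KO epithelium (SE 0.78, limma adjusted p = 0.0126), and the differences in the 3 tumours were 3.0, 3.9 and 6.25. Plvap, on probe 1, was 3.38 higher (SE 0.53, limma adjusted p = 0.00854), with 2.32, 3.36 and 4.46 in the tumours. Flt1 was 3.95 higher (SE 0.91, limma adjusted p = 0.027), with 2.13, 4.15 and 5.58. These genes had tumour KO 4 at the top in each case, whose epithelium was the lowest array. The Flt1 tumour signal on KO epithelium 4 was not well above background, so the size of its 5.58 is uncertain.

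The 3 other genes called in KO tumours were Robo4 at 2.90 (SE 0.57, limma adjusted p = 0.0166), Cdh5 at 1.49 (SE 0.32, adjusted p = 0.0212) and Tie1 at 1.45 (SE 0.37, adjusted p = 0.0376). Tie1 was not well above background on any KO epithelium array or on KO stroma 1, so the size of its difference is uncertain. With KO epithelium taken at no less than the lowest signal found well above background, the KO stroma mean was 2.36-fold higher. This is not a strict lower bound. Pecam1 at 0.63 (SE 0.19, adjusted p = 0.055), Esam at 1.62 (SE 0.50, adjusted p = 0.0636) and Kdr at 0.11 (SE 0.15, adjusted p = 0.666) were not called by limma, and Esam was called with the odd reference spots set missing (adjusted p = 0.035). The groups did not overlap for 8 of 9 genes (36.8% of all kept genes). All 9 genes, and 10 of their 11 probes, were higher in stroma in all 3 KO tumours, as were 25.1% of all kept genes. When all probes were fitted, 6 of 11 member probes were called (12.9% of all kept probes). Leaving out tumour KO 3 on either array left 1 gene called and leaving out KO 4 left 2, while 6 were called without KO 1, WT 1 or WT 2 and 8 without WT 3. Calls among all 13350 kept genes fell as well, from 2675 to 1152 without KO epithelium 3 and 1095 without KO epithelium 4. They fell to 1218 without KO epithelium 1.

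In WT tumours, 0 of 9 members were called between stroma and epithelium, where 0.00749% of all kept genes were. The median log2 difference was 0.21, between -1.32 for Esam (-0.68 with the odd reference spots set missing) and 0.99 for Egfl7. Egfl7 differed by 0.90, -0.74 and 2.81 in the 3 WT tumours, and Flt1 by -0.43, -1.56 and 2.80. In WT tumours 1 and 3 stroma stood above epithelium for 7 of the 9 genes each, and in WT tumour 2 it lay below for all genes other than Cdh5. Cdh5 was the 1 gene higher in stroma in all 6 tumours (8.01% of all kept genes were), by 0.18 to 2.09. Its difference in WT tumour 2, 0.32, rests on the odd reference spot of WT stroma 2.

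**Figure D4:**
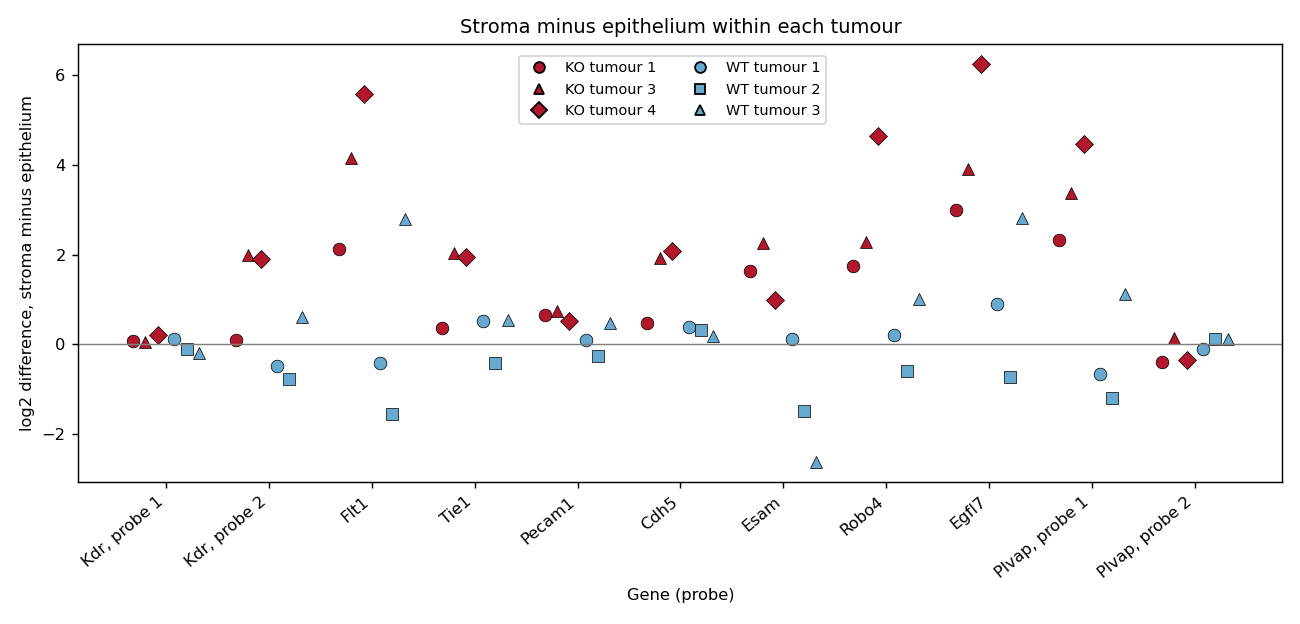
Log2 difference of stroma minus epithelium within each tumour (vertical axis) for the 11 kept probes, with KO tumours in red left of WT tumours in blue and symbols for the tumour number. KO tumours lie above 0 for every probe other than probe 2 of Plvap, and WT tumours lie on both sides of 0 for most.

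Over all 6 tumours 4 of 9 members were called, all higher in stroma, where 15.0% of all kept genes were called and 8.37% were called higher. They were Egfl7 at 2.69 (SE 0.55, limma adjusted p = 0.0247), Plvap at 1.57 (SE 0.38, adjusted p = 0.0376), Cdh5 at 0.89 (SE 0.22, adjusted p = 0.0427) and Robo4 at 1.55 (SE 0.40, adjusted p = 0.0461). These calls lay close to the threshold, and between 0 and 4 of them were made when 1 array was left out, with 0 whenever an array of tumour KO 3, KO 4, WT 1 or WT 3 was missing. Calls among all 13350 kept genes ran from 939 to 1385 in these fits, against 2003 with all arrays. With the odd reference spots set missing, Cdh5 was no longer called (limma adjusted p = 0.0827), although its difference stayed at 0.89. When all probes were fitted, 1 of 11 member probes, that of Egfl7, was called (8.83% of all kept probes).

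Whether KO and WT tumours differed in this contrast was tested directly. The difference of the stroma minus epithelium contrast, KO minus WT, was called for 0 of 9 members and for 0% of all kept genes (limma); 2416 of the 13350 genes and 6 of the 9 members had an unadjusted p under 0.05. It was positive for all 9, with a median of 2.69 against -0.06 over all kept genes. Plvap had the smallest adjusted p, at 3.63 (SE 0.75, limma adjusted p = 0.0989), with Flt1 at 3.68 and Egfl7 at 3.39. The contrast in KO tumours is thus not shown to differ from that in WT tumours.

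Of the tested ligands that act on vessels, among them those of the member receptors, 8 of 13 lay higher in KO stroma than in WT stroma. Of 13 tested ligand genes, 2 rose in KO stroma over WT stroma and 0 fell (3.50% of all kept genes rose): Slit3, a member of the Slit guidance proteins (log2 2.77, SE 0.47, limma adjusted p = 0.0119), and Adm, the vessel-acting peptide adrenomedullin (1.46, SE 0.38, adjusted p = 0.0469). Slit3 averaged 1.46 in KO stroma and -1.31 in WT stroma. In KO tumours 4 of the 13 were called higher in stroma than in epithelium (10.2% of all kept genes were). They were Slit3 (3.86), Adm (2.31), Angpt2 (1.66), the angiopoietin that loosens vessels, and Vegfd (4.17), a lymphatic growth factor. In WT tumours 0 of 13 were called by limma, where 0.00749% of all kept genes were, and the median was 0.19.

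Of other tested endothelial genes, 27 of 28 lay higher in KO stroma than in WT stroma. Of 28 tested, 7 rose in KO stroma over WT stroma and 0 fell (3.50% of all kept genes rose). Their median was 1.04, against -0.01 over all kept genes. Among the calls with the smallest adjusted p were Nrp2, a co-receptor of vascular growth factors (log2 1.80, SE 0.31, limma adjusted p = 0.013), Tal1, an endothelial and blood transcription factor (1.89, adjusted p = 0.0199), and Sox18, a vascular transcription factor (1.32, adjusted p = 0.0217). Between 1 and 7 were called when 1 array was left out, the fewest without WT stroma 1. Without that array 175 of all 13350 kept genes were called, against 850 with all arrays. Under 11 other settings 0 to 7 were called, with 3 under Agilent processed signals. Calls among all genes ran from 2 to 895 under those settings. In KO tumours 19 of 28 were called higher in stroma than in epithelium (10.2% of all kept genes were), at a median of 2.32, and 6 were called when an array of tumour KO 3 or KO 4 was left out. Calls among all kept genes fell there too, from 2675 to 1152 without KO epithelium 3 and 1095 without KO epithelium 4. In WT tumours 0 of 28 were called by limma at a median of 0.31, where 0.00749% of all kept genes were called.

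Genes of the vessel wall and of neighbouring cells were set beside the members. Of all kept genes, 3.50% were called higher in KO stroma than in WT stroma and 2.87% lower. Of 9 vascular basement membrane genes, 4 rose in KO stroma over WT stroma: Lama4 (log2 1.64), Hspg2 (2.24), Nid1 (2.96) and Lamc1 (1.10), which encode laminin chains, perlecan and nidogen. The second probes of Hspg2 and Nid1 differed by 0.30 and 0.84. Of 4 tested genes of activated venous endothelium 1 rose, Ackr1 (1.93, SE 0.49, limma adjusted p = 0.0442), a chemokine-binding receptor of venules. Of 3 tested lymphatic genes 0 were called by limma, and the defining lymphatic genes Prox1 and Flt4 did not pass the filter. Of 12 pericyte and smooth muscle genes 1 rose, Mcam (log2 1.24), whose second probe differed by 0.15. Fibroblast genes, which are not of vessels, had 4 of 13 called higher in KO stroma at a median of 2.43. All 13 were called higher in KO stroma than in KO epithelium (10.2% of all kept genes were), at a median of 4.90. Macrophage genes had 3 of 11 called higher and 1 lower in KO stroma, and red cell genes 0 of 5 at a median of 1.37. Of the platelet genes 1 of 3 was called higher in KO stroma by limma, and of the leukocyte, basal epithelial and adipocyte genes 0 of 7, 0 of 7 and 0 of 6, at medians of -1.10, -0.83 and 1.39. The leukocyte mean was 2.82 on WT stroma 2, where the members were lowest in stroma, against -0.62 and -0.26 on WT stroma 1 and 3. The adipocyte mean was 4.79 on KO stroma 3, where the members were highest, against 1.70 and 0.98 on KO stroma 1 and 4. Luminal epithelial genes had 5 of 10 called lower in KO stroma than in WT stroma, at a median of -1.48 (2.87% of all kept genes were called lower), and all 10 called lower in KO stroma than in KO epithelium (9.86% of all kept genes).

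The mean log2 ratio of the 10 luminal genes ran from 0.61 to 1.78 in KO stroma and from 2.29 to 3.37 in WT stroma, against 3.46 to 4.08 in KO epithelium and 2.97 to 3.69 in WT epithelium. For the 13 fibroblast genes it ran from 2.97 to 3.45 in KO stroma and from 0.28 to 1.83 in WT stroma. The mean of the 9 members ran from 1.99 to 3.01 in KO stroma, 0.90 to 1.68 in WT stroma, -0.15 to 0.71 in KO epithelium and 1.0 to 1.57 in WT epithelium. The ranges of KO and WT stroma thus did not overlap for the members, the luminal genes or the fibroblast genes. The same held for every other list except pericytes and smooth muscle, leukocytes, and adipocytes, so it is not particular to the members. The Wnt1 ratio differed between the same groups. The part of the luminal, fibroblast and Wnt1 ratios in the members' values was not tested. Fewer endothelial cells in a capture and less RNA of these genes per cell cannot be told apart in such bulk samples.

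**Figure D5:**
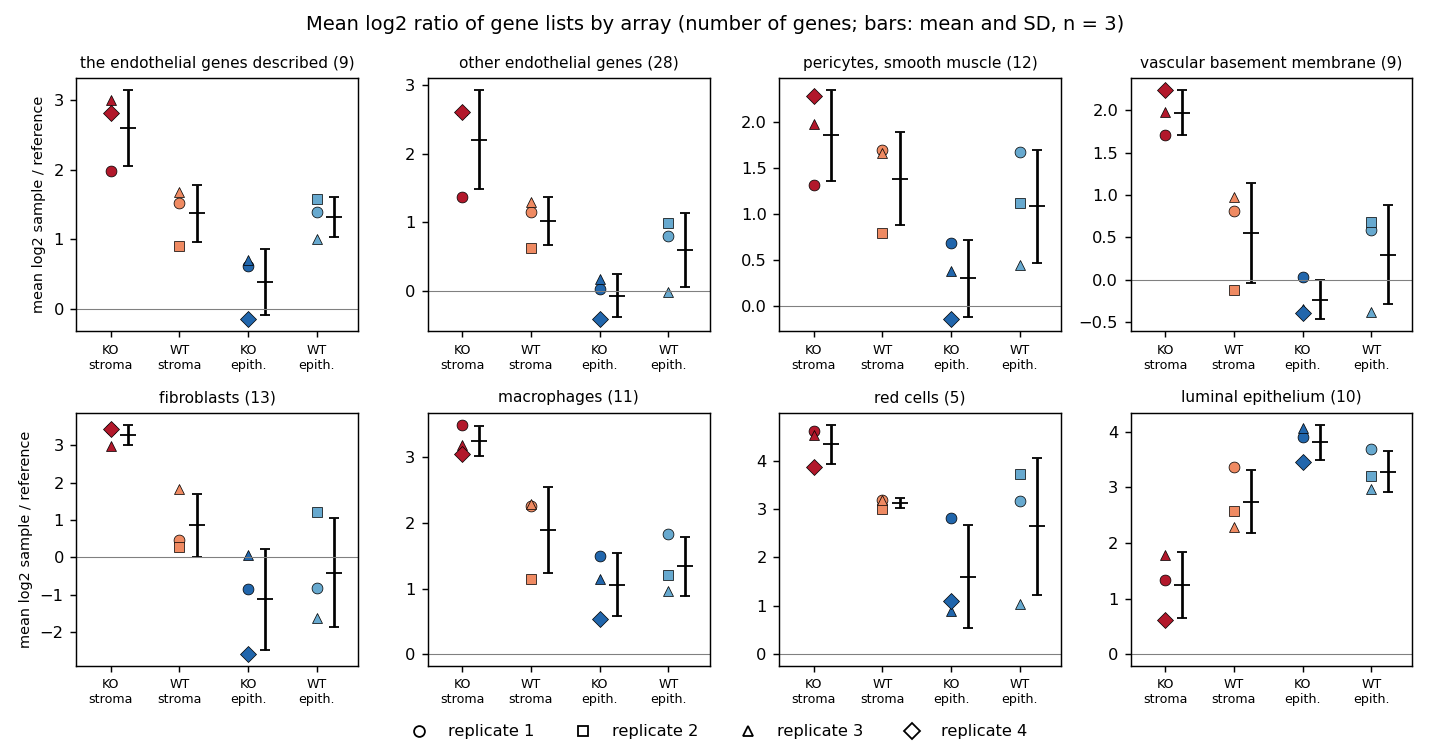
Mean log2 ratio of tumour sample to reference over the genes of each list (vertical axis, a separate scale in each panel) in the 4 groups; symbols are arrays by replicate number and bars are the mean and SD of 3 arrays. The members and the fibroblast genes are highest in KO stroma, and the luminal genes are lowest there, at 0.61 to 1.78.

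Across the 12 arrays, the genes most like the mean of the members were Nos3, the endothelial nitric oxide synthase (Pearson r = 0.980), Arap3 (0.966), Tbc1d2b, Sparcl1, Txndc5, Tmem88, Adcy4, Mmrn2 (0.953), Col6a3 and Abca9 (0.952). These are descriptions over 4 groups that differ in their means, and arrays of a compartment share a slide. Of the 100 genes most alike, 11 belong to the list of other endothelial genes, 3 to the basement membrane list, 2 to the fibroblast list and 2 to the macrophage list. With the group means taken out, r was 0.956 for Nos3 and 0.954 for Mmrn2, a surface protein of endothelium.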

How the data were processed

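The 12 arrays are 2-colour Agilent scanner files, deposited by the authors as intensity per spot with a log10 ratio of Cy5 over Cy3, made with Agilent Feature Extraction 10.7.3.1 per the file headers. Of the 62976 spots on an array, 3671 are controls. The deposited value table holds log2 values per the comparison with the scanner files: its 6 epithelial columns correlate at -0.925 to -0.895 with the turned scanner ratio, so they run reference over sample and were used with the sign turned, and its 6 stromal columns correlate with their arrays at about 0 and were not used.

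Median signals were background-corrected (normexp, offset 50) and loess-normalised within each array, spots of a probe were averaged, and probes were named through their accession in RefSeq. A gene was represented by its brightest kept probe, and every member probe was fitted too. Tests used limma 3.58.1 in R 4.3.3: 4 group means for KO against WT, and tumour as a block for stroma against epithelium, since a title number is shared by the compartments. Deviations of same-tumour arrays correlated at 0.09 to 0.45, and those of KO and WT tumours sharing only a number at -0.30 to 0.30. P-values were adjusted by Benjamini-Hochberg over all kept genes or probes, at 0.05. All 10 members were named; from each other list, up to 4 called genes with the smallest adjusted p, of which 1 is not reported here; and the 10 genes most like the members. The members and lists were chosen with earlier results of these data known. The number of arrays limits the precision. The test was tested on simulated data.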

Additional observations from a re-analysis of the deposited data

How the results depend on the processing

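No member was called between KO and WT in either compartment, or between stroma and epithelium in WT tumours, under any setting other than the single-array omissions given here. Leaving out 1 array at a time, the members called ran from 0 to 1 in KO against WT stroma, from 0 to 4 for stroma against epithelium over 6 tumours and from 1 to 8 in KO tumours; for the 11 probes these ranges were 0 to 1, 0 to 2 and 0 to 7. Over 6 tumours, 1 member was called with Agilent processed signals, 2 with a normexp offset of 10 and 1 with no filter on dim probes, against 4. Calls among all genes numbered 1384 and 1923 of 13350 and 1940 of 20660 under these settings, against 2003 of 13350. In KO tumours, 3 of 6 members were called when the tumour signal had to be above background on all 12 arrays, a filter that removes dim members. Under that filter 2135 of all 9241 genes were called, against 2675 of 13350 by default. Of the 11 probes, processed signals called 0 over 6 tumours and 3 in KO tumours, against 1 and 6, and 2 were called over 6 tumours with odd reference spots set missing, an alternative chosen after seeing the data, as was taking the probe of largest variance. The members' median moved by over 1.5 times with processed signals in KO minus WT stroma (1.64), over 6 tumours (1.49) and in KO tumours (3.34). In KO minus WT epithelium it was -0.65 with the mean of a gene's probes, -0.77 with no filter and -0.22 with the number as a replicate block, and the difference between the KO and WT contrasts was 1.69 with the mean of probes.

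Kdr in stroma turned sign with the probe, to 0.33 for the mean of its probes and 0.75 for the probe of largest variance. The cause was not tested for the other reversals: stroma minus epithelium in WT tumours was -0.44 for Cdh5 with processed signals and -0.16 for Flt1 with array weights, and KO minus WT in epithelium for Pecam1 was -0.0092 with array weights and -0.083 in the deposited value table. With single arrays left out, signs turned for Kdr in KO minus WT stroma (-0.15 to 0.030), Pecam1 in KO minus WT epithelium (-0.0050 to 0.085), and, over 6 tumours, Esam (-0.21 to 0.47) and Kdr (-0.020 to 0.059). In WT tumours they turned for Flt1 (-0.99 to 1.19), Kdr (-0.15 to 0.012), Pecam1 (-0.081 to 0.28), Plvap (-0.93 to 0.23), Robo4 (-0.20 to 0.61) and the median (-0.081 to 0.28).

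KO and WT share only the numbers 1 and 3, which name different tumours; arrays of 1 number correlated at -0.30 to 0.30. With the number as a replicate block, 0 members were called in stroma and 0 in epithelium, Egfl7 in epithelium was 0.043 and all calls in stroma fell to 2 genes from 850. Without the tumour block, 4 members were called over 6 tumours and 6 in KO tumours. With tumour as a random block, 6 and 7 were called. Across the 10 settings other than array omissions, calls among all genes ran from 1384 to 2633 over 6 tumours. In KO tumours they ran from 2135 to 3312. All genes called in stroma numbered 292 in the 6 stromal arrays alone and 175 (without WT stroma 1) to 931 otherwise. Calls of the difference between KO and WT contrasts, 0 by default, reached 159 with array weights. Tek is bounded by background in both dyes, and Robo4, Tie1, Cdh5 and probe 2 of Kdr have reference signals near background.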
